A study of Rattus norvegicus with 7 samples.

Results

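miR-122 is the miRNA most closely tied to the hepatocyte, and its hairpin gives rise to a pair of mature strands that the arrays name rno-miR-122 and rno-miR-122*. Their rows were taken by name, as the array rows annotated exactly with either name that were not control spots. The names were chosen with earlier results of these data known. The 2 strands were 2 of 677 miRNAs on the array, read by 4 of 1644 probes and by 40 of 13540 spots on each array. Both were among the 175 miRNAs detected in enough rats to be tested.

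Liver RNA of adult male Sprague-Dawley rats was hybridised to 1-colour Agilent miRNA arrays, with 1 rat per array and no pooling. The PFOS group of 4 rats ate a diet with 50 mg of potassium perfluorooctanesulfonate (PFOS, a persistent fluorinated surfactant) per kg of diet for 28 days, and the Control group of 3 rats ate control diet for the same time. Both diets were fed ad libitum, so the dose each rat took in is not known here, and 1 further control array was dropped by the submitters. All 7 arrays were on 1 slide. RNA came from whole liver, so fewer cells of a type and less RNA per cell cannot be told apart in any value given here.

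A miRNA is cut from a hairpin as a short duplex, and usually 1 strand is loaded into Argonaute, where bases 2 to 8, the seed, pair with target mRNAs and lower their stability and translation. In liver the guide is miR-122, which is transcribed under hepatocyte nuclear factors, marks the differentiated hepatocyte and represses genes that liver cells keep low, such as the amino acid transporter Slc7a1 and the muscle-type aldolase Aldoa. Blocking miR-122 in animals lowers plasma cholesterol, and miR-122*, the passenger strand, is mostly degraded after the duplex is opened.

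The sequences are shown because the strands come from 1 precursor, have different seeds and are read by separate probes. They were taken from RefSeq on the rat assembly GRCr8, where miR-122 is called miR-122-5p and miR-122* is called miR-122-3p, and are written 5′ to 3′ with the seed in capitals.
miR-122: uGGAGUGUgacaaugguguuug
miR-122*: aACGCCAUcaucacacuaa
miR-122 has 22 bases and lies at chr18:61028831-61028852 on the plus strand, and miR-122* has 19 bases and lies at chr18:61028867-61028885 on the same strand. Among the 724 mature rat miRNAs in the RefSeq table, 0 others shared the seed of miR-122 and 0 others shared that of miR-122*. The hairpin is printed with both strands in capitals.
Mir122 hairpin: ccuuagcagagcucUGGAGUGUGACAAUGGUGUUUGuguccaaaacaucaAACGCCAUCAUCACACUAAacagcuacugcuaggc
It has 85 bases (chr18:61028817-61028901, plus strand), with 14 bases between the strands. RNAfold placed 15 base pairs between the strands in a fold of -42.6 kcal/mol. In the annotation the hairpin lies within a transcribed pseudogene, LOC134482951, with Nedd4l and Alpk2 as the nearest protein-coding genes on either side.

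The opposite DNA strand of the same locus carries a second annotated miRNA, miR-3591, which was looked at after its values had been seen. Its mature sequence is complementary, base for base, to bases 1 to 20 of miR-122, and is shown, seed in capitals, because the array has probes for it.
miR-3591: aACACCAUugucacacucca
It lies at chr18:61028831-61028850 on the minus strand. miR-3591 was detected on 0 of 7 arrays, with unscaled signals from 0.355 to 21.8, whereas miR-122 gave unscaled signals from 41918 to 84604 on the same arrays. Only PFOS 2, with 4 of 17 kept spots, and PFOS 3, with 1 of 20, had any miR-3591 spot well above background.

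Before any scaling, miR-122 had the highest signal of all miRNAs on each of the 7 arrays. A signal here is the fluorescence of a miRNA's spots, background-subtracted and averaged over the spots of a probe, with the probes of a miRNA summed. It depends on how well a probe binds as well as on the amount of RNA, so its order among miRNAs is one of brightness and not of molecules. In the PFOS rats, the unscaled signal of miR-122 was 53504 in PFOS 1, 67576 in PFOS 2, 84604 in PFOS 3 and 74180 in PFOS 4. In the control rats it was 49281, 41918 and 50514 in Control 1, 2 and 3. All 4 PFOS rats were above all 3 control rats, and the mean of 69966 ± 13022 (SD, n = 4) was 1.48 times that of 47238 ± 4648 (SD, n = 3; exact two-sided permutation test, p = 0.0571). This was not particular to miR-122: unscaled signal was higher in every PFOS rat than in every control rat for 46.9% of the 175 tested miRNAs.

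The passenger strand was far dimmer. Unscaled, miR-122* had a signal of 1231, 1860, 1991 and 1921 in PFOS 1 to 4, and of 1274, 1063 and 1265 in Control 1 to 3. PFOS 1 lay within the control range and the other 3 PFOS rats above it, with group means of 1751 ± 351 (SD, n = 4) and 1201 ± 119 (SD, n = 3; exact two-sided permutation test, p = 0.114). Its brightness ranked 14th to 19th in the PFOS rats and 12th to 14th in the control rats.

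Array brightness differed between the groups as a whole, which bears on every unscaled value. The summed signal of all miRNAs was 1.59 times higher in PFOS than in Control, and 1.67 times higher with miR-122 taken out. The number of detected miRNAs was 161 to 200 on the PFOS arrays and 131 to 174 on the control arrays. The roles of the spike-in RNAs were assigned here from the spot names, and their signals ordered all 7 arrays as the labelling and hybridisation spike-in measures in the file headers did. Labelling spike-ins gave 2683 to 4452 on the PFOS arrays and 1400 to 1503 on the control arrays, 2.20 times higher in the mean (exact two-sided permutation test, p = 0.0286, the smallest that 35 splits of 7 arrays allow). Hybridisation spike-ins gave 17170 to 18590 and 17989 to 20431 (ratio of means 0.943, p = 0.171 by the same exact test). The part of these differences in the results on miR-122 was not tested.

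miR-122 made up about 40% of all miRNA fluorescence in every liver, with a smaller share in each PFOS rat than in any control rat. Its share of the summed signal was 39.9% in PFOS 1, 38.9% in PFOS 2, 38.5% in PFOS 3 and 41.3% in PFOS 4. In Control 1, 2 and 3 the share was 42.1%, 42.5% and 42.7%. The groups did not overlap, and the means of 39.7% ± 1.24 (SD, n = 4) and 42.4% ± 0.291 (SD, n = 3) differed by -2.77 percentage points. The exact two-sided permutation test gave p = 0.0571, or 0.114 after Benjamini-Hochberg adjustment over the shares of both strands. The difference thus did not pass the threshold of 0.05, but it could not have passed by itself. The smallest exact p that 35 splits allow, 0.0286, becomes 0.0571 on adjustment unless both shares reach it. Among the 175 tested miRNAs, 5.14% had a share that was lower in every PFOS rat than in every control rat, and 16.6% had one that was higher in every PFOS rat. The order turned when the share was taken from the pixel signal without background subtraction, where the mean was 2.40 points higher in PFOS. With spots that the scanner software flagged as outliers kept in, the difference was -3.58 points, with an exact p of 0.0286, or 0.0571 after adjustment over both strands.

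The share of miR-122* overlapped between the groups. It was 0.917%, 1.07%, 0.907% and 1.07% in PFOS 1 to 4 and 1.09%, 1.08% and 1.07% in Control 1 to 3. PFOS 1 and PFOS 3 were low, while PFOS 2 and PFOS 4 reached the control level. The difference in means was -0.0869 points (exact two-sided permutation test, p = 0.229).

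miR-21, a miRNA expressed in many cell types, had the next highest signal on each array. It held 5.89 to 7.80% of the signal in the PFOS rats and 6.65 to 7.44% in the control rats. The signal of miR-122 was 4.94 to 6.76 times that of miR-21 in PFOS and 5.71 to 6.33 times in Control, and these ranges overlapped.

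**Figure D1:**
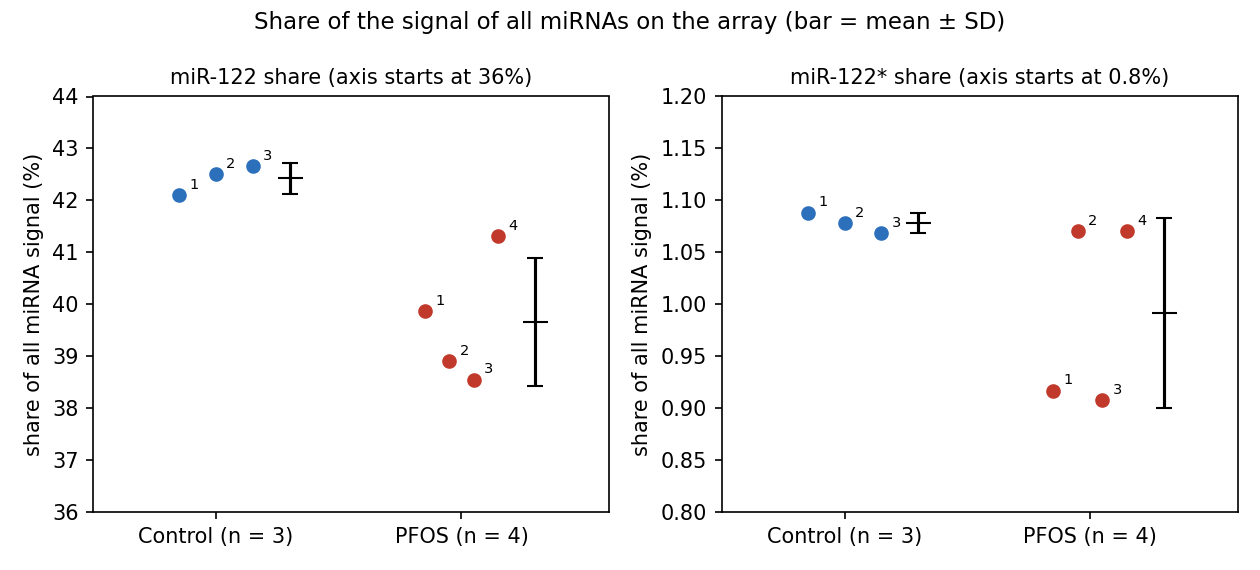
Share of the summed miRNA signal (percent, axes not starting at 0) held by miR-122 (left) and miR-122* (right), with 1 point per rat numbered by replicate and the mean ± SD beside each group. All 4 PFOS rats lie at 38.5 to 41.3% for miR-122, under the control rats at 42.1 to 42.7%, whereas the groups overlap for miR-122*.

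Once each array was scaled, neither strand changed past the threshold. The scaling brought the 75th percentile of signal over the 123 miRNAs detected on all arrays to 1 common value. Scaled signals of miR-122 were 59409, 54504, 52154 and 61418 in PFOS 1 to 4 and 59274, 62473 and 61648 in Control 1 to 3. PFOS 2 and PFOS 3 were lowest, PFOS 1 and PFOS 4 fell within the control range, and the SD was 4281 over the PFOS rats against 1661 over the control rats. On the log2 scale the difference between PFOS and Control was -0.11 (SE 0.09, 95% interval -0.31 to 0.10), a ratio of 0.929, with a limma adjusted p of 0.574.

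For miR-122* the scaled signals were 1366, 1500, 1228 and 1591 in PFOS 1 to 4 and 1532, 1584 and 1544 in Control 1 to 3. PFOS 1, 2 and 3 were below the control rats and PFOS 4 was above them. Of the 175 tested miRNAs, 4.57% were lower in every PFOS rat than in every control rat, and neither strand was among them. The log2 difference was -0.14 (SE 0.11, 95% interval -0.39 to 0.12), a ratio of 0.911, with a limma adjusted p of 0.572. The intervals leave room for a drop of up to 0.31 log2 units in miR-122 and 0.39 in miR-122*, and for a rise of about 0.1, so the absence of a call does not show that the levels were equal.

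**Figure D2:**
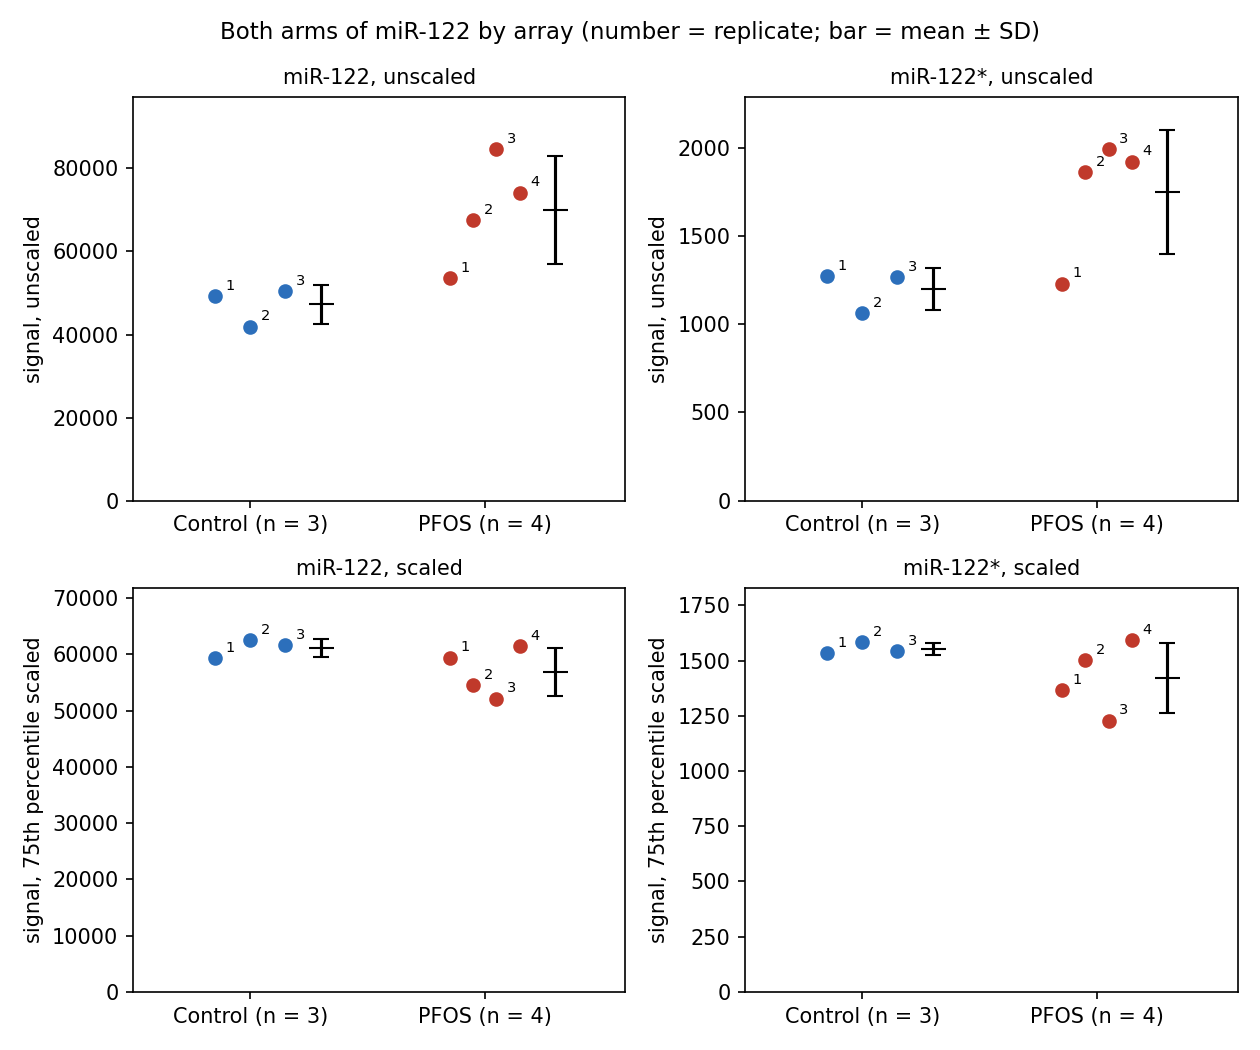
Signal of miR-122 (left) and miR-122* (right) on each array before scaling (top) and after 75th percentile scaling (bottom), on linear axes that start at 0, with 1 point per rat numbered by replicate and the mean ± SD beside each group. Before scaling all 4 PFOS rats exceed the control rats for miR-122, and after scaling the groups overlap for both strands.

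In the same limma model, 0% of the 175 tested miRNAs passed an adjusted p of 0.05, and 17.7% (31) had an unadjusted p under 0.05. The 2 strands were not among those 31, with unadjusted p-values of 0.256 and 0.244. Ordered from the lowest log2 difference, miR-122 stood 54th and miR-122* 46th of 175. The median difference over all tested miRNAs was 0.04, and relative to it the strands stood at -0.15 and -0.18.

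**Figure D3:**
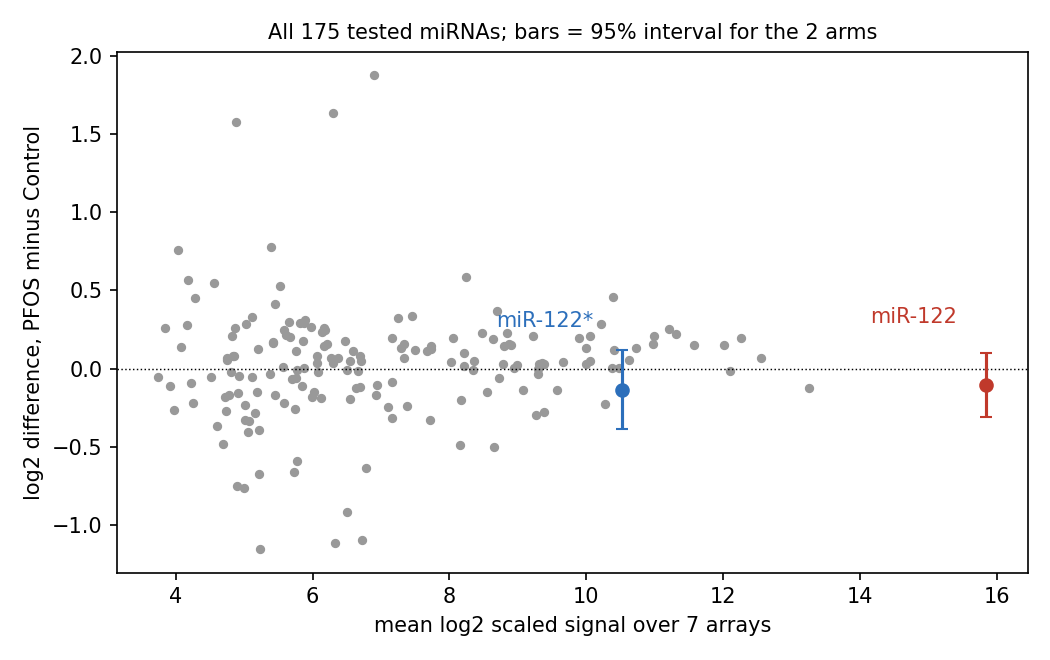
Difference between PFOS and Control (log2, scaled signal) against mean log2 scaled signal for the 175 tested miRNAs, with 95% intervals for miR-122 (red) and miR-122* (blue). miR-122 lies at the far right, brighter than every other miRNA, and both intervals include 0.

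The slide held the arrays in 2 rows, each with rats of both groups, so the comparison could be repeated within rows. Row 1 held PFOS 1, PFOS 2 and Control 1, and there miR-122 differed by -0.06 log2 units and miR-122* by -0.10. In row 2, with PFOS 3, PFOS 4, Control 2 and Control 3, the differences were -0.13 and -0.16. The share of miR-122 was lower in PFOS by 2.72 points in row 1 and by 2.65 points in row 2. With the row as a block in the limma fit the log2 differences were -0.10 (adjusted p = 0.599) and -0.14 (adjusted p = 0.596), and 4 of the 175 miRNAs passed.

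Each strand was read by a pair of probes, and the mean log2 difference was below 0 for all 4 probes, though A_26_P00001312 gave 0.046 after cyclic loess and 0.032 after normexp. The scaled signal of probe A_26_P00001312 for miR-122 averaged 22062 ± 1679 (SD, n = 4) in PFOS and 23033 ± 599 (SD, n = 3) in Control, a log2 difference of -0.06 (SE 0.09, limma adjusted p = 0.858). Its partner A_26_P00001313 averaged 34810 ± 2647 and 38099 ± 1231, a log2 difference of -0.13 (SE 0.09, limma adjusted p = 0.536). The ratio between these probes was 1.54 to 1.61 on the PFOS arrays and 1.62 to 1.71 on the control arrays, so the ranges did not overlap (exact two-sided permutation test, p = 0.0571). How often the probe ratios of other miRNAs separate the groups was not counted, so this cannot be called particular to miR-122.

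The probes of miR-122* scattered more between rats. A_26_P00003395 averaged 411 ± 60.6 (SD, n = 4) in PFOS and 455 ± 43.1 (SD, n = 3) in Control, with a log2 difference of -0.15 (SE 0.14, limma adjusted p = 0.667). A_26_P00003396 averaged 1011 ± 108 and 1099 ± 36.4, with a log2 difference of -0.13 (SE 0.10, limma adjusted p = 0.612). Over all 320 probes tested, limma called 0%, with 17.2% at an unadjusted p under 0.05. The miR-122* probes stood in a ratio of 2.26 to 2.72 in PFOS and 2.23 to 2.80 in Control, which overlapped.

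Every probe was printed as 10 spots per array, which gives the spread between spots within an array but not that of labelling or hybridisation. For miR-122 the median coefficient of variation over spots was 6.97% and 6.90% for its 2 probes. Between PFOS rats the scaled probe means varied by 7.61% and 7.60%, and between control rats by 2.60% and 3.23%. These values are for means over 10 spots, which scatter less than single spots, and they include any spread of labelling and hybridisation. They are therefore not directly comparable with the spread over spots. No miR-122 spot was flagged as an outlier or saturated, and the brightest on any array reached 7.51% of the scanner's saturation value.

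miR-122* was less evenly measured. The software flagged 12 of its 140 spots as outliers, all of them dimmer than every kept spot of the same probe and array, and they were left out. A further 13 kept spots were under 75% of their median, and these lay on PFOS 2, PFOS 3 and Control 3. On PFOS 3 the coefficient of variation over spots reached 36.2% for A_26_P00003395 and 21.6% for A_26_P00003396. PFOS 3 was also the rat with the lowest scaled miR-122*. It stayed the lowest with the median over spots, at 1326, with PFOS 1 next at 1404.

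The ratio of the strands within an array needs no scaling between arrays, and it did not differ between the groups beyond its spread. miR-122 gave 43.5, 36.3, 42.5 and 38.6 times the signal of miR-122* in PFOS 1 to 4, and 38.7, 39.4 and 39.9 times in Control 1 to 3. The control ratios lay inside the PFOS range, and the SD of the log2 ratio was 0.121 over the PFOS rats and 0.0228 over the control rats. The log2 ratio differed by 0.03 (SE 0.08, 95% interval -0.18 to 0.23, limma adjusted p = 0.880 over 21 strand pairs). The sign turned with the median over spots in place of the mean (-0.016) and without PFOS 1 (-0.011). In the deposited table the log2 ratio differed by -0.24 (SE 0.09, limma adjusted p = 0.0917), where 28.6% of the 21 pairs passed. After a cyclic loess fitted here to background-subtracted signals it differed by 0.25 (SE 0.09, 95% interval 0.04 to 0.46, limma adjusted p = 0.129). These values had opposite signs, but the signals that went into the 2 normalizations may have differed too.

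Among the 21 precursors with both strands tested, limma called 9.52% of ratios, which were those of miR-99a and miR-29c. For miR-99a over its star strand the log2 difference was 0.46 (SE 0.07, adjusted p = 0.00853), with miR-99a* detected in 3 PFOS rats and 1 control rat, so that its size rests in part on signals not well above background. miR-29c* was detected in 3 PFOS rats and 0 control rats, so no size is given for that pair, whose adjusted p was 0.0135. Leaving out PFOS 2, PFOS 3, PFOS 4 or Control 3 took the count to 0, and leaving out Control 2 took it to 1. The rule of detection on at least 3 PFOS arrays was kept in these fits. Both star strands met it with 3 PFOS rats, so leaving out 1 of those rats removed the pair from the test. Without PFOS 2 or PFOS 3, 16 pairs were tested. A count of 0 without a PFOS array therefore does not show that a difference was lost. By p-value the pair from Mir122 was 17th of the 21.

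**Figure D4:**
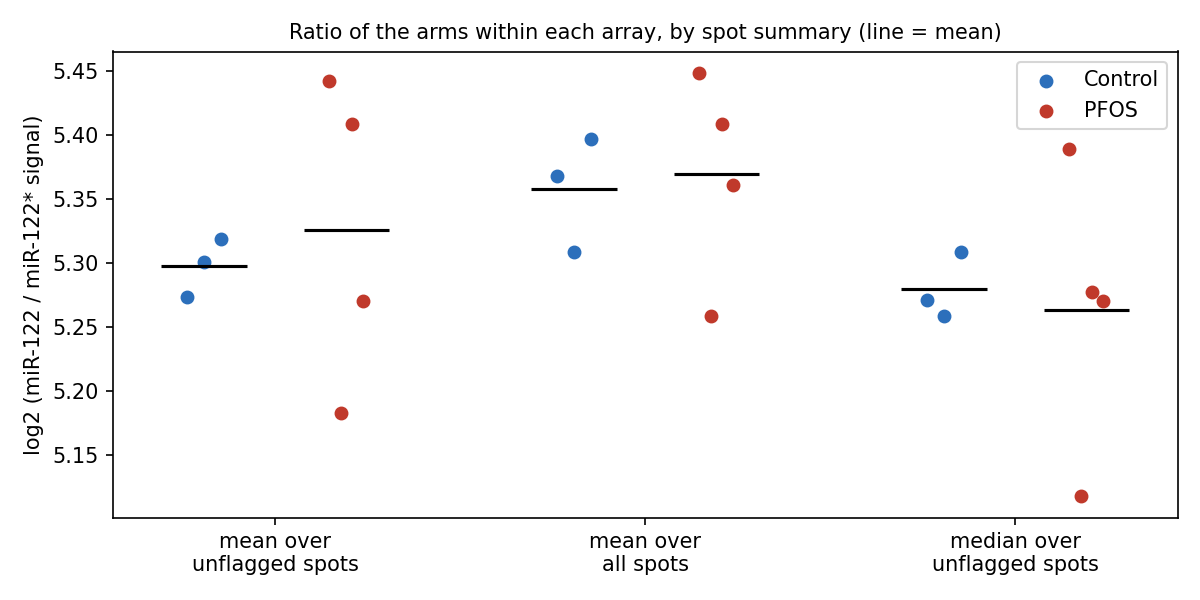
Log2 ratio of miR-122 to miR-122* signal on each array, with 1 point per rat and a line at the group mean, for 3 ways of summarising the spots of a probe. The PFOS points spread from 5.18 to 5.44 with the mean over unflagged spots, around control points at 5.27 to 5.32, and the order of the group means turns with the median.

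The authors' deposited table gave another picture of the same arrays. It holds log2 signals after cyclic lowess, per the labels, a method that fits smooth curves through pairs of arrays against brightness. In it miR-122 was 14.75, 14.35, 14.25 and 14.42 in PFOS 1 to 4 and 15.05, 15.25 and 15.05 in Control 1 to 3. All PFOS rats lay below all control rats. The log2 difference, fitted here with limma on the deposited values, was -0.67 (SE 0.12, 95% interval -0.96 to -0.37, adjusted p = 0.0365), the lowest of all 175 miRNAs. The drop was not particular to miR-122, since miR-21 came next at -0.63 (limma adjusted p = 0.0330). For the 20 next brightest miRNAs, which include miR-122*, the median in that table was -0.27, against -0.02 over all 175.

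miR-122* was also lower in PFOS in the deposited table. Its log2 values were 9.26, 9.16, 9.06 and 9.10 in PFOS 1 to 4 and 9.42, 9.75 and 9.56 in Control 1 to 3, again without overlap. The log2 difference was -0.43 (SE 0.09, 95% interval -0.64 to -0.22, limma adjusted p = 0.0437). Of the 175 miRNAs in that table, limma called 5.14% lower and 0% higher in PFOS, and 18.3% had all PFOS rats below all control rats. Leaving out any array but PFOS 1 ended the call for miR-122 (adjusted p up to 0.123), and leaving out any but PFOS 1 or Control 1 ended that for miR-122*, while the differences stayed between -0.77 and -0.60 and between -0.51 and -0.34. Within slide row 1 the table's log2 differences were -0.50 for miR-122 and -0.20 for miR-122*, and within row 2 they were -0.81 and -0.58. With the row as a block, limma gave an adjusted p of 0.0376 for miR-122 and of 0.0532 for miR-122*, which ended the call for miR-122*.

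Set against the median pixel signal of the same spots, the deposited values of miR-122 were higher in all 3 control rats and lower in 3 of the 4 PFOS rats. The table stood 0.60, 1.00 and 0.55 log2 units above the scanner value in Control 1 to 3. It stood 0.14 above it in PFOS 1, and 0.60, 1.05 and 0.63 below it in PFOS 2, 3 and 4. For miR-122* the shifts ran from 0.40 to 0.77 upward in the control rats and from 0.76 downward to 0.06 upward in the PFOS rats. The scanner values of miR-122 themselves, on that log2 scale, were 14.61, 14.95, 15.30 and 15.05 in PFOS and 14.45, 14.25 and 14.50 in Control, in the order opposite to that of the table.

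A cyclic loess fitted here to the summed, background-subtracted signals did not give the difference of the deposited table. Within each array the deposited values correlated at 0.9987 to 0.9999 with the median pixel signal, which has no background subtracted. The starting signals may thus have differed, and no loess was fitted here to the median pixel signal. After the loess fitted here the log2 difference was 0.0042 for miR-122 (SE 0.06, limma adjusted p = 1.00) and -0.25 for miR-122* (SE 0.08, 95% interval -0.45 to -0.05, limma adjusted p = 0.185). All PFOS rats were then below all control rats for miR-122*, as for 9.71% of the 175 miRNAs. With both strands left out of the curve and then corrected by it, the differences were -0.17 (adjusted p = 0.287) and -0.26 (adjusted p = 0.180) by limma.

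Across 15 ways of processing the arrays, miR-122 was lower in PFOS in 10 and higher in 4, and the log2 difference ran from -0.67 to 0.64. The other setting, quantile normalization, gives the brightest miRNA of each array the same value and so fixes its difference at 0. For miR-122* it was lower in 12 and higher in 3, from -0.58 to 0.61. Scaling to the labelling spike-ins gave -0.55 (limma adjusted p = 0.101) for miR-122, and scaling to the hybridisation spike-ins gave 0.64 (limma adjusted p = 0.0441), at which 93 of the 175 miRNAs passed, all of them higher in PFOS. The median of all tested miRNAs moved with these choices, to -0.41 with the labelling spike-ins, 0.77 with the hybridisation spike-ins and 0.25 with the 75th percentile over all miRNAs. Relative to that median miR-122 stood at -0.15 in the main scaling, with the 75th percentile over all miRNAs and with the labelling spike-ins. It stood at -0.14 with the hybridisation spike-ins and with no scaling. These settings multiply all miRNAs of an array by a common factor, so miR-122 and the median move together. The relative value was -0.65 in the deposited table, 0.24 after normexp background correction and 0.21 with the raw median signal.

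**Figure D5:**
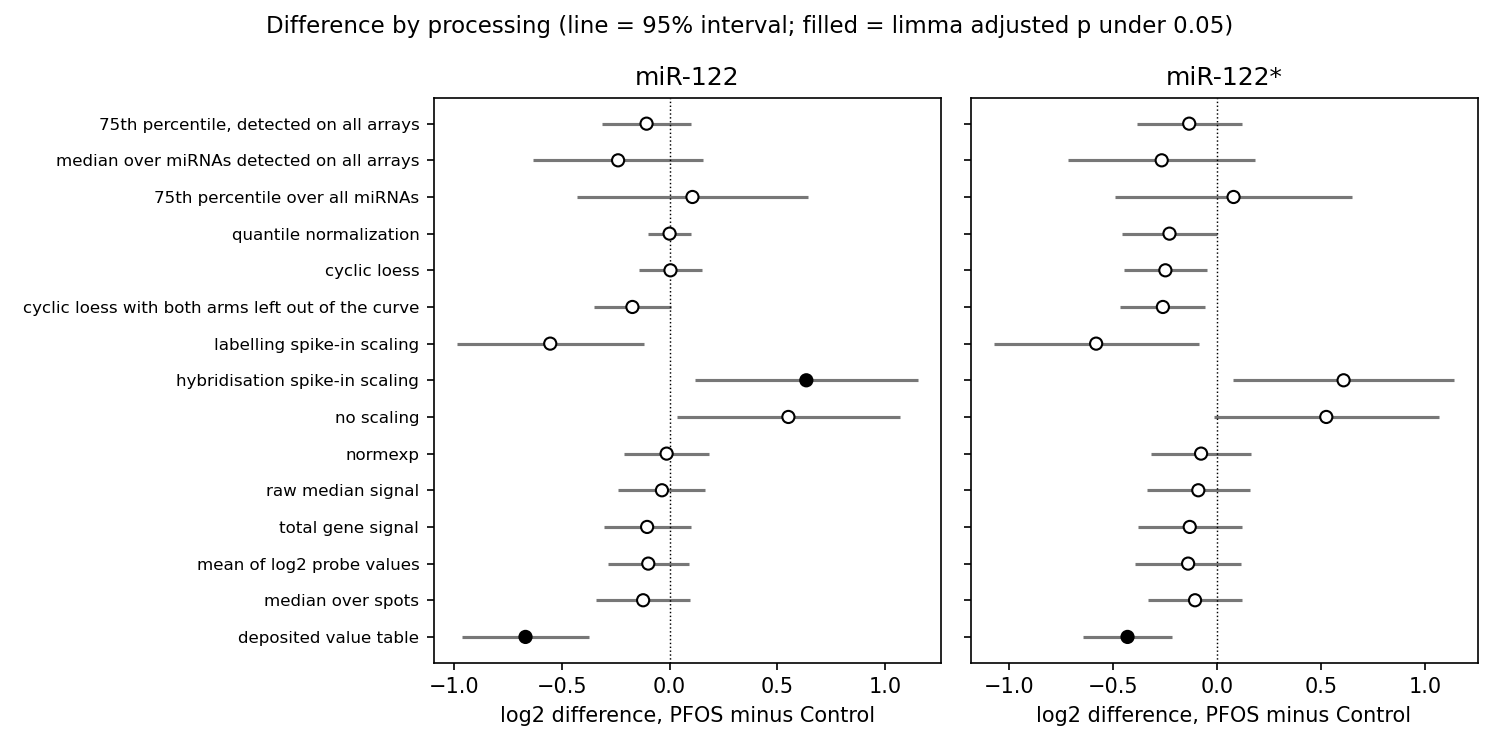
Difference between PFOS and Control (log2, with 95% interval) for miR-122 (left) and miR-122* (right) under 15 ways of processing, filled where the limma adjusted p was under 0.05. The deposited table lies lowest for miR-122 at -0.67 and the hybridisation spike-in scaling highest at 0.64, with the percentile and loess settings between them.

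The miRNAs whose values lay closest to those of the strands over the 7 arrays were found by the root mean square distance between centred log2 scaled values. Closest to miR-122 were miR-7a (0.0690), miR-192 (0.0707), miR-92a (0.0779), miR-122* (0.0813) and miR-19b (0.0888), against a median distance of 0.223 over 174 miRNAs. Closest to miR-122* were miR-24 (0.0715), let-7e (0.0744), miR-122 (0.0813), miR-23b (0.0820) and miR-140* (0.0889), against a median of 0.231. miR-122* was thus the 4th nearest of miR-122, and miR-122 the 3rd nearest of miR-122*, while miR-192, a miRNA abundant in liver and gut epithelium, was the 2nd nearest of miR-122. All these distances share the same arrays and the same scaling. A miRNA that did not vary at all would lie just under the SD of the strand over the 7 arrays. That SD was 0.0986 for miR-122 and 0.137 for miR-122*. Small distances to miR-122 thus need not mean shared variation.

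In the main scaling, other miRNAs known from hepatocytes did not pass the test in either direction. Of 17 listed beside the strands of miR-122, 15 were on the array and 14 were tested, with 11 differences above 0 and 3 below, and 0 calls by limma, 2 having an unadjusted p under 0.05. Over all 175 tested miRNAs, 102 differences were above 0 and 73 below, and 17.7% had an unadjusted p under 0.05. The median of the 14 was 0.13, against 0.04 over all 175. The listed miRNAs of smallest p were miR-22* (0.31, SE 0.10, limma adjusted p = 0.185), miR-101a (0.23, SE 0.08, adjusted p = 0.185), miR-101b (0.21, SE 0.09, adjusted p = 0.301) and miR-148b-3p (0.26, SE 0.12, adjusted p = 0.301). In the deposited table the median of the same 14 was -0.04, against -0.02 over all 175. There limma called miR-192 (-0.44, adjusted p = 0.0348), miR-194 (-0.30, adjusted p = 0.0411) and miR-22 (-0.42, adjusted p = 0.0470) lower in PFOS. Over all 175 it called 5.14% lower.

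The brightest miRNAs and the other star strands are given for comparison. The 20 next brightest miRNAs, which include miR-122*, had 16 differences above 0 and 4 below, miR-122* being 1 of the 4. Over all 175 tested miRNAs, 102 were above 0 and 73 below. The median of the 20 was 0.14 in the main scaling and -0.27 in the deposited table. The 28 other star strands tested had a median of -0.04, beside -0.14 for miR-122*.

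The tissue label was checked against miRNAs known to mark cell types of the liver. The hepatocyte markers other than miR-122, miR-192 and miR-194, were both detected, with a summed scaled signal of 5615 to 6096 in PFOS and 5633 to 6223 in Control. Summed markers of leukocytes and Kupffer cells (5 tested; 1089 to 1453 against 1143 to 1307), stellate cells and fibroblasts (5; 769 to 1085 against 794 to 1022), endothelium (2; 1779 to 1921 against 1466 to 1862) and erythroid cells (2; 442 to 1137 against 527 to 903) overlapped between the groups. The 5 epithelial markers on the array (miR-200a, miR-200b, miR-429, miR-200c and miR-141) summed to 290 to 579 in PFOS and 68.4 to 183 in Control and did not overlap. Of these, miR-200c and miR-141 were not detected, and neither were the neuronal miR-9 and miR-124. Scaled signal was higher in every PFOS rat than in every control rat for 23 of the 175 tested miRNAs, the 3 tested epithelial markers among them. The part of these markers in the miR-122 values was not tested.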

How the data were processed

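Spot intensity values were made from the scans by Feature Extraction 10.7.3.1 and, per the file headers, had background subtracted but no scaling across arrays. The deposited table of log2 values was normalized by the authors with cyclic lowess, per the labels, with settings not given in the sources used here. Groups were taken from the sample titles; replicate numbers only name arrays. Spots without outlier flags were averaged per probe, and the probes of a miRNA were summed. Arrays were scaled to the 75th percentile over 123 miRNAs detected on all arrays, to keep miR-122 itself out of any fitted curve, with a floor at the 1st percentile of detected values. miRNAs detected on all 3 Control or at least 3 PFOS arrays were tested with limma 3.58.1 in R 4.3.3 (Benjamini-Hochberg, adjusted p under 0.05), after the code was tested on simulated data. Strand ratios and probes had fits of their own, and shares an exact permutation test. The miRNAs named are both strands, the next brightest miRNA, the 5 nearest miRNAs of each strand and strand pairs that passed. Also named are the 4 hepatocyte-list miRNAs of smallest p and those of that list called in the deposited table. Beyond these, miR-3591 is named for its place opposite miR-122, and some of the listed cell type markers are named. The members and lists were chosen with earlier results of these data known. The number of arrays limits precision. Slide rows come from the file headers.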

Additional observations from a re-analysis of the deposited data

Results flagged for a closer look

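In a screen of 34 measures over the 4 PFOS arrays, 1 array stood apart in 1 measure: the summed signal of the labelling spike-ins on PFOS 3, at 4452, against 2683 to 2881 on the other 3. Such a screen marks about 1 in 20 groups by chance, and no measure of miR-122 or miR-122* was marked.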

How the results depend on the processing

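With replicates left out in turn, the log2 difference ran from -0.13 to -0.07 for miR-122, -0.17 to -0.07 for miR-122* and -0.011 to 0.076 for the strand ratio, and the shares from -3.32 to -2.40 and -0.11 to -0.06 points. No difference or ratio passed the threshold, and the shares could not, since the exact test on 6 arrays gives no p below 0.0667. Calls over all miRNAs stayed at 0, and strand pairs called ran from 0 to 2, with only 16 pairs tested without PFOS 2 or PFOS 3. In the deposited table these fits gave -0.77 to -0.60 for miR-122, -0.51 to -0.34 for miR-122* (-0.47 without PFOS 1) and 1 to 19 calls (19 without PFOS 1, 5 without Control 1, 1 to 3 otherwise).

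Signs turned for miR-122 and miR-122* with the 75th percentile over all miRNAs (0.11, 0.078), hybridisation spike-ins (0.64, 0.61) and no scaling (0.55, 0.52), and for miR-122 with cyclic loess (0.0042, also with slide row as a block). The deposited table gave -0.67 and -0.43 (-0.68 for miR-122 with slide row as a block), both past the threshold, and a strand ratio of -0.24; the median over spots gave -0.016. Probe A_26_P00001312 gave 0.046 with loess and 0.032 with normexp. Raw median signal gave shares of 2.40 and 0.041 points, and flagged spots kept -3.58 for miR-122 (exact p 0.0286, adjusted over both strands 0.0571). miRNA calls were 3, 93 and 53 with those scalings, 2 with total gene signal, 9 in the table (9 with the block) and 4 with the block alone or after loess. Strand pairs called were 1 with loess or the mean of log2 probe values, 8 with normexp or raw signal, 0 with total gene signal and 6 in the table. The cause was not tested in any of these. The fits of the block in the table and after loess, the table fits without 1 array and the shares with flagged spots were chosen after seeing the data. No paired analysis was possible because the labels number rats and pair none.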
